A study of Mus musculus with 6 samples.

Results

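Transcripts of the folding and quality control machinery of the endoplasmic reticulum (ER) were compared between primary mouse microglia kept in plain serum-free medium and microglia kept under the optimized culture conditions. The genes were chosen by symbol from a list of 45 that covers ER chaperones, disulfide bond enzymes, unfolded protein sensors, ER-associated degradation and protein translocation. Of these, 44 were among the 41079 genes of the deposited tables; Crelp was not found under that symbol. Under the optimized conditions, 23 of the 43 members that could be tested rose and 2 fell. Of all 14618 tested genes, 14.7% rose and 15.2% fell. All 6 disulfide bond enzymes rose, led by Pdia3 and Pdia6, each 1.78-fold. Edem2, which trims mannose from misfolded glycoproteins, rose 2.43-fold, while Herpud1, a membrane component of the degradation complex, was 2.01-fold lower.

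Secreted and membrane proteins enter the ER through the Sec61 channel, are folded there with the help of chaperones of the heat shock protein families and of the sugar-binding chaperones calnexin and calreticulin, and receive disulfide bonds from protein disulfide isomerases, which the Ero1 oxidases recharge. Proteins that fail to fold are passed back through the membrane, tagged with ubiquitin and degraded, a route called ER-associated degradation (ERAD). A load of unfolded protein is sensed by ATF6, IRE1 (gene Ern1) and PERK (gene Eif2ak3). ATF6 and the transcription factor XBP1 then raise the transcription of chaperone and ERAD genes, while PERK slows translation and favors translation of ATF4. Microglia, the resident macrophages of the brain, carry many membrane receptors and release lysosomal enzymes and cytokines, all of which pass through the ER.

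The cells came from brains of C57Bl/6N mice aged 1 to 3 days. They had been grown in flasks coated with poly-L-ornithine, with 20% conditioned medium of L-929 cells (a mouse fibroblast line) added at intervals, and were shaken off; by the study's methods, each flask pooled several brains. The 3 control cultures were then kept in serum-free DMEM/F12, a standard basal medium. The 3 optimized cultures received human TGFbeta, human IL34 and CX3CL1 at 100 ng/mL each, as the labels state, and, by the study's methods, also cholesterol, insulin-transferrin-selenium and a collagen IV coating; these components were given together and their contributions cannot be told apart. RNA was sequenced in 1 library per culture, and the labels do not say whether cultures came from separate litters, so p-values measure the spread between these cultures.

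The libraries held between 20628148 and 27261839 counts over all genes. Of 8 microglia markers, 7 were in the tables, and their summed level was 5880 to 5979 CPM (counts scaled to library size) in the controls and 10323 to 12029 CPM in the optimized libraries, with 5 of the 7 higher and 2 lower. The summed level of 6 neuron markers was 3.07 to 4.72 CPM and 5.3 to 6.34 CPM, and that of 5 astrocyte markers 27.1 to 30.0 CPM and 18.3 to 20.8 CPM. The fall of the astrocyte sum lay in Aldh1l1, whose mean was 16.5 CPM in the controls and 4.64 CPM in the optimized libraries. It was the only astrocyte marker called (log2 fold change -1.83, edgeR adjusted p = 3.8e-06). Uncalled were Gja1 and Gfap, with log2 fold changes of 0.49 and 0.16, and Aqp4 and Slc1a2, with -0.20 and -0.59. The 6 oligodendrocyte lineage markers summed to 127.5 to 143 CPM and 159.8 to 192 CPM, and the 6 fibroblast and endothelial markers to 18.9 to 25.0 CPM and 20.5 to 74.9 CPM. Plasma cells are rich in the genes described here. Of their 4 markers, Jchain and Mzb1 had 0 to 3 counts per library and Cd79a 0 to 6, while Sdc1, which other cells also express, had 67 to 129 counts and fell by 0.50 on the log2 scale (edgeR adjusted p = 0.043). All 4 markers of proliferating cells fell, from between 104 and 119 CPM in sum to between 48.1 and 62.6 CPM. The part of these shifts in the results below was not tested, and since whole cultures were sequenced, a change in the number of cells that use a gene and a change in its RNA per cell cannot be told apart.

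Promoters of several members hold the ER stress response element (ERSE), the letters that ATF6 and XBP1 are known to read together with the factor NF-Y. Windows from 250 bases before to 50 bases after the start of the canonical transcript of each gene were taken from GRCm39. They were searched on both strands for CCAAT and CCACG with 9 bases between them. The search was limited to genes that RefSeq's promoter table lists, 38 of the members among 15317 genes. Hyou1, Manf, Atf6, Derl1, Sec61a1 and Ssr2 were thus not searched. The element was found in 10 of the 38 members (26.3%) and in 24 of all 15317 promoters (0.157%). ERSE-II (ATTGG, 1 base of any kind, then CCACG) was found in 2 members (5.26%), Herpud1 and Dnajb11, and in 7 promoters of all (0.0457%). The following stretches are a selection, from 5 members that were called higher and 1 that was called lower in the comparison below. Other members with an ERSE, among them the uncalled Canx and Creld2, are not printed. They are written 5′ to 3′ on the strand of the gene, and the capitals mark the 5-base parts of the element. Where CGTGG comes first, the element lies on the opposite strand.
Hspa5, chr2:34662029-34662063, plus strand: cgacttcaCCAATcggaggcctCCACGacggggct
Hsp90b1, upstream element, chr10:86541494-86541528, minus strand: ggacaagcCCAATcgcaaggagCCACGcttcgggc
Hsp90b1, downstream element, chr10:86541389-86541423, minus strand: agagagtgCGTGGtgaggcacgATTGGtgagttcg
Calr, chr8:85573696-85573730, minus strand: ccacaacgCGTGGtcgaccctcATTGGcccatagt
Pdia6, chr12:17316484-17316518, plus strand: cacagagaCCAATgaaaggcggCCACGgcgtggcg
Syvn1, chr19:6096554-6096588, plus strand: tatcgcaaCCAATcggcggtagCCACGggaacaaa
Herpud1, ERSE-II, chr8:95112997-95113023, plus strand: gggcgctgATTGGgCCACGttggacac

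The ERSE of Hspa5 lay 67 to 49 bases before the start of the canonical transcript, that of Calr 55 to 37 and that of Pdia6 41 to 23. Hsp90b1 had 2 elements, at 142 to 124 and at 37 to 19 bases. The element of Hspa5 and the downstream element of Hsp90b1 lay inside the annotated gene, whose outermost start is farther upstream. The other members with an ERSE were Syvn1, at 44 to 26 bases, and Canx, Creld2, Derl3, Dnajc3 and Ero1b. Shorter letters were common in promoters at large: the XBP1 core GACGTG was in 7 members (18.4%) and 7.25% of all promoters, and CCACG alone in 27 members (71.1%) and 38.8% of all. A match describes these letters in these windows and does not show that a factor binds them. The lack of a match means only that the exact letters were not in the window. Elements with a changed letter, or outside the window, were not looked for.

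The comparison of the conditions was made on raw counts with edgeR's quasi-likelihood test over 14618 genes, and a gene was called when its Benjamini-Hochberg adjusted p was under 0.05. Across all tested genes, 14.7% were called higher and 15.2% lower in the optimized libraries. Of the 43 tested members, 23 were called higher (53.5%) and 2 lower (4.65%), and 18 were not called. Every optimized library lay above every control library for 27 members (21.4% of all genes) and below for 4 (22.5% of all genes), and the libraries overlapped for 12. All 25 called members had libraries that did not overlap. The median log2 fold change of the members was 0.28, beside 0.01 over all tested genes. Summed over the members, the level was 8576, 8757 and 9155 CPM in the controls and 11196, 12467 and 12721 CPM in the optimized libraries, so the optimized libraries were all higher.

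The number of calls depended on the scaling and on the libraries kept, for the members and for all genes. With library totals alone in place of TMM factors, 14 members were called higher and 4 lower, where 10.4% of all genes were higher and 21.7% lower. The median of all genes was itself displaced by -0.121, and relative to that shift the members' median was 0.27. On log2(FPKM + 1) values, limma called 8 higher and 4 lower, where 5.44% of all genes were higher and 11% lower. The count of higher calls was 15 without control replicate 1, 14 without control replicate 3 and 14 without optimized replicate 3. In these fits 10.9%, 10.9% and 11.3% of all genes were called higher. The members' median was 0.28 without control replicate 1 and 0.29 without control replicate 3. The only remaining lower call without control replicate 1 or without optimized replicate 3 was Herpud1. Across all 18 alternatives, 8 called members kept their call: Hsp90b1, Pdia3, Pdia4, Pdia6, P4hb, Ero1a and Edem2 as higher and Herpud1 as lower.

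**Figure D1:**
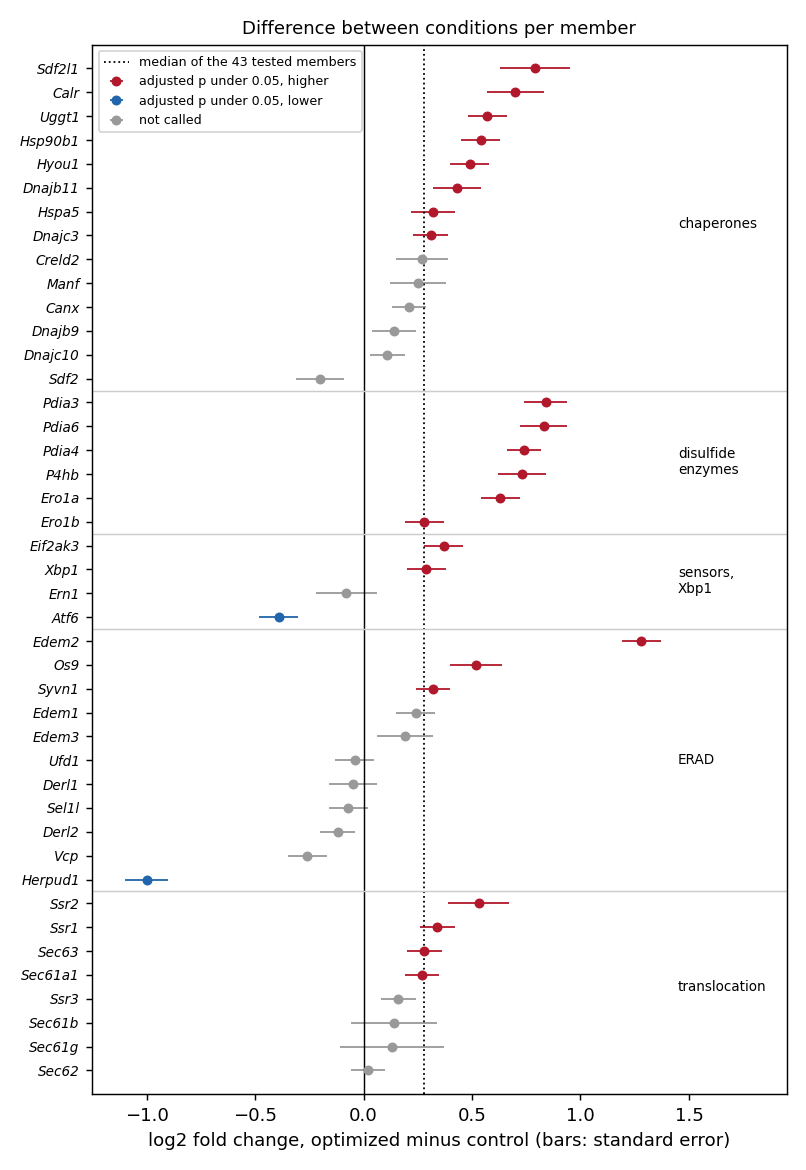
Log2 fold change of each tested member (x axis, optimized minus control) with its standard error as a bar, grouped by role; red points were called higher, blue points lower and grey points were not called. The 6 disulfide bond enzymes are all red, between 0.28 and 0.84, while the ERAD members spread from Herpud1, which fell by 1.00, to Edem2 at 1.28.

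**Figure D2:**
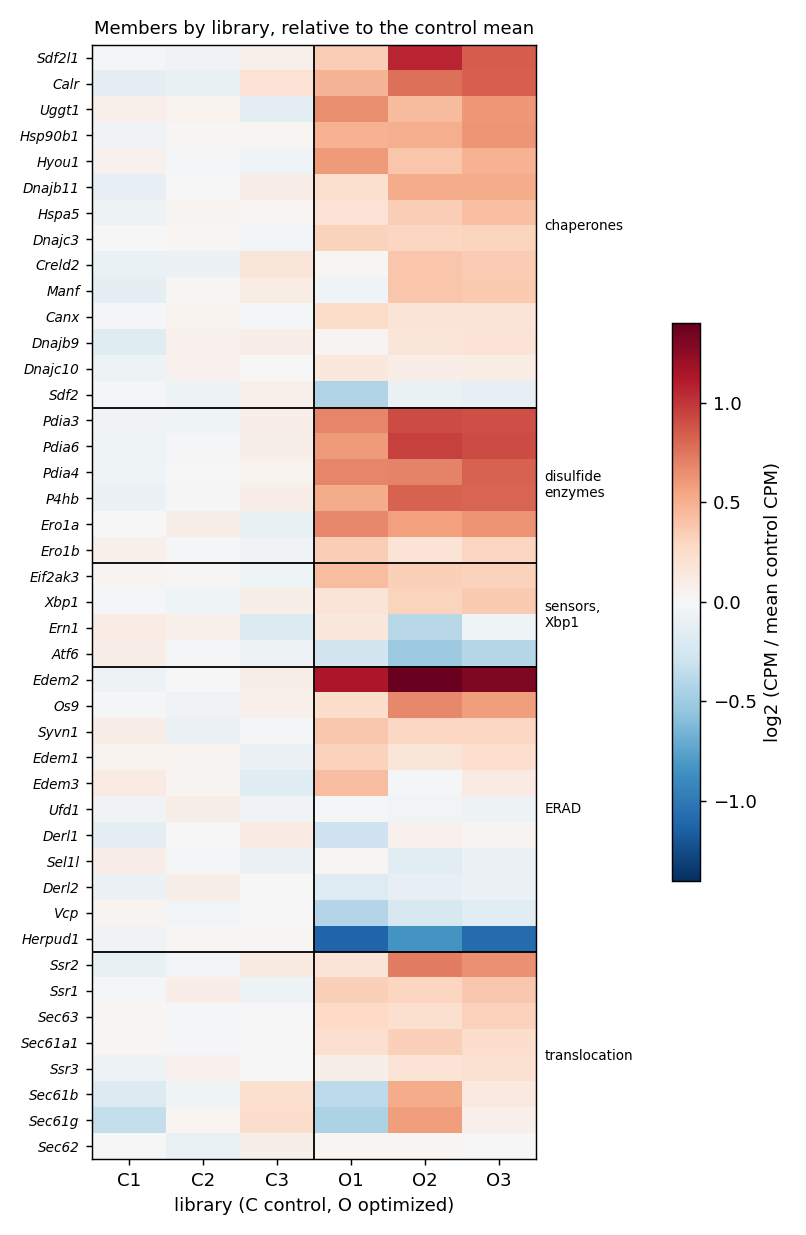
Level of each tested member (rows, by role) in each of the 6 libraries (columns, C control, O optimized); the color gives the log2 ratio of CPM to the mean of the controls, red higher and blue lower. The rows of the disulfide bond enzymes are raised in all 3 optimized libraries, and those of Herpud1 and Atf6 are lowered.

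Of the 14 chaperones and co-chaperones, 8 rose (57.1%) and none fell, beside 14.7% and 15.2% of all tested genes. The median log2 fold change of the 14 was 0.32. Calr encodes calreticulin, a calcium-binding lectin chaperone of the ER lumen. Its level was 1144, 1166 and 1438 CPM in control replicates 1 to 3 and 1731, 2134 and 2226 CPM in optimized replicates 1 to 3. The lowest optimized library thus stood above the highest control, and the log2 fold change was 0.70 (standard error, SE, 0.13; edgeR adjusted p = 0.003). Canx encodes calnexin, the membrane-bound relative of calreticulin, and had 527, 556 and 534 CPM against 642, 612 and 611 CPM. These libraries did not overlap either, but the log2 fold change of 0.21 (SE 0.08) was not called (edgeR adjusted p = 0.094), though it was by DESeq2 (adjusted p = 0.033). Uggt1, the enzyme that puts a glucose back on unfolded glycoproteins so that both lectins bind them again, had 125, 123 and 109 CPM in the controls and 187, 162 and 181 CPM under the optimized conditions, a log2 fold change of 0.57 (SE 0.09, edgeR adjusted p = 0.0012).

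Hspa5, also known as BiP, is the main HSP70 chaperone of the ER and holds the sensors inactive when bound to them. It had 910.3, 979 and 974 CPM in the controls and 1096, 1210 and 1274 CPM in the optimized libraries. The groups did not overlap, and the log2 fold change of 0.32 (SE 0.10) was called with an edgeR adjusted p of 0.032. The call was lost in 10 of the 18 alternatives, 5 of them the removal of a library. Hsp90b1, the ER member of the HSP90 family (GRP94), had 782, 816 and 823 CPM against 1133, 1149 and 1242 CPM, log2 fold change 0.54 (SE 0.09, edgeR adjusted p = 0.0013). Hyou1, a large relative of HSP70 that exchanges the nucleotide of BiP, had 118, 112 and 109 CPM against 171, 148 and 158 CPM. Its log2 fold change of 0.49 (SE 0.09, edgeR adjusted p = 0.0018) was called, with no overlap between the groups.

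Co-chaperones of BiP included called and uncalled genes. For Sdf2l1, which works with Dnajb11, the log2 fold change was the highest of the chaperones at 0.79 (SE 0.16, edgeR adjusted p = 0.0038). Its level was 68.8, 67.2 and 72.9 CPM in the controls and 88.7, 146 and 125 CPM in the optimized libraries, so the optimized libraries differed from each other by more than the controls did. Dnajb11 had 102, 112 and 119 CPM against 129, 159 and 159 CPM, a log2 fold change of 0.43 (SE 0.11, edgeR adjusted p = 0.012). Dnajc3, which also restrains PERK, rose by 0.31 on the log2 scale (SE 0.08, edgeR adjusted p = 0.011). Its means were 118 ± 2.99 CPM in the controls and 147 ± 1.2 CPM in the optimized libraries (SD, n = 3 each). The call of Dnajb11 was lost on removal of any of 3 libraries, and that of Dnajc3 on removal of either of 2. Dnajb9, a J protein that is a standard target of XBP1, had 28.5, 33.3 and 34.1 CPM against 32.8, 36.1 and 36.5 CPM, and these overlapped. Its log2 fold change was 0.14 and that of Dnajc10, a J protein with disulfide reductase activity, 0.11, and neither was called. Sdf2, the close relative of Sdf2l1, had 45.6, 43.9 and 48.4 CPM against 34.3, 43.2 and 42.4 CPM, which did not overlap. Its log2 fold change of -0.20 (SE 0.11, edgeR adjusted p = 0.2) was not called, though it was called lower in 4 of the 18 alternatives, library totals alone and the fits on FPKM. Manf and Creld2, small secreted proteins induced by ER stress, had log2 fold changes of 0.25 and 0.27, overlapped between the groups and were not called. Both were called higher in 3 of the 18 alternatives. These were the fit without optimized replicate 1 and the fits with a trend on gene length removed, with and without the replicate number as a block. Without optimized replicate 3, 5 chaperones in place of 8 were called higher, and 11.3% of all genes in place of 14.7%.

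Sdf2l1 is a short transcript, at 0.311 of the length of the median tested gene, and the libraries differed in how levels followed gene length. In optimized replicate 1 the log2 deviation from the mean of its condition rose by 0.06 per doubling of length, and in optimized replicate 2 it changed by -0.05. The 7 shortest members, Sec61b, Sec61g, Manf, Sdf2l1, Sdf2, Ssr2 and Creld2, at 0.155 to 0.383 of the median length, all had their lowest optimized value in optimized replicate 1. This was not particular to short members. Longer ones such as Os9, at 1.5 of the median length, also had their lowest optimized value there. Others, such as Hyou1 at 1.33, did not. With a spline on gene length removed, 25 members were called higher and 3 lower. Manf and Creld2 were added to the higher calls and Vcp to the lower.

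All 6 disulfide bond enzymes rose, beside 14.7% of all tested genes, and their median log2 fold change was 0.73. The libraries of the conditions did not overlap for any of the 6. Pdia3, the isomerase that works with calnexin and calreticulin on glycoproteins, had 721, 714 and 795 CPM in the controls and 1195, 1401 and 1386 CPM in the optimized libraries. Its log2 fold change was 0.84 (SE 0.10, edgeR adjusted p = 0.00019). P4hb, the classical protein disulfide isomerase, had 524, 551 and 594 CPM against 799.6, 988 and 979 CPM; its log2 fold change was 0.73 (SE 0.11, edgeR adjusted p = 0.00067). Each optimized library stood above the highest control by more than the range of the controls for both genes. Pdia6, an isomerase that also binds the sensors, had 220.3, 228 and 243 CPM against 348, 446 and 435 CPM, a log2 fold change of 0.83 (SE 0.11, edgeR adjusted p = 0.00028). Pdia4 had 89.4, 93.2 and 96.1 CPM against 149.6, 150.1 and 164 CPM, with the smallest adjusted p of the 6 (edgeR, 9.1e-05; log2 fold change 0.74, SE 0.08).

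The oxidases that supply the isomerases with disulfides were also both higher. Ero1a had 42.1, 44.4 and 38.8 CPM in the controls and 66.7, 62.2 and 64.7 CPM in the optimized libraries, a log2 fold change of 0.63 (SE 0.09, edgeR adjusted p = 0.00038). Ero1b, at 27.9, 26.2 and 25.7 CPM against 33.7, 30.3 and 32.8 CPM, had a log2 fold change of 0.28 (SE 0.09, edgeR adjusted p = 0.045). This call was close to the threshold and was lost in 12 of the 18 alternatives. The calls of the other 5 enzymes were kept in every one.

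**Figure D3:**
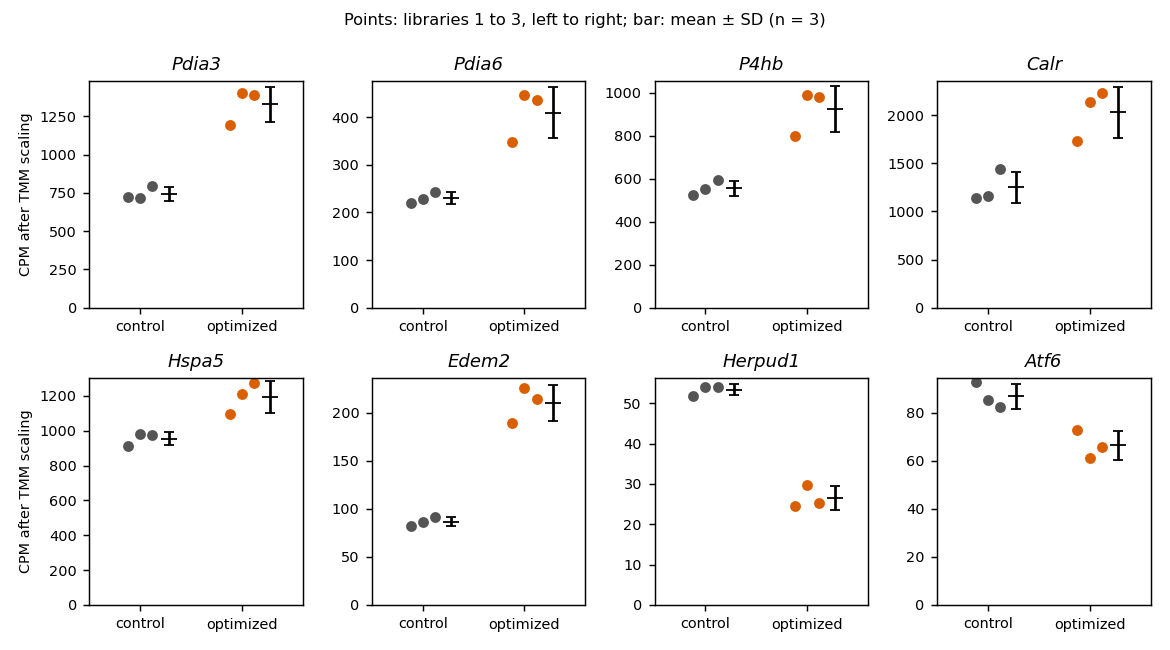
CPM in each library (points) with the mean and SD of each condition (bars beside the points, n = 3) for Pdia3, Pdia6, P4hb, Calr, Hspa5, Edem2, Herpud1 and Atf6, on axes that start at 0. Control and optimized points are separate for each gene, and Herpud1 and Atf6 are the genes whose optimized points lie below the controls.

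Among the sensors and Xbp1, 2 of 4 genes rose and 1 fell, beside 14.7% and 15.2% of all tested genes. The summed level of the 4 overlapped between the conditions (262 to 274 CPM in the controls and 267 to 284 CPM in the optimized libraries). Atf6, the sensor that is cut in the Golgi to release a transcription factor, had 92.7, 85.1 and 82.4 CPM in the controls and 72.6, 60.9 and 65.5 CPM in the optimized libraries. The groups did not overlap, and Atf6 fell by 0.39 on the log2 scale (SE 0.09, edgeR adjusted p = 0.011). Eif2ak3, the gene of PERK, had 31.9, 31.4 and 29.9 CPM against 42.1, 39.2 and 38.9 CPM, and its log2 fold change of 0.37 (SE 0.09, edgeR adjusted p = 0.009) was called; with library totals alone it was not. Ern1, the gene of IRE1, the kinase and nuclease that splices Xbp1 mRNA, had 39.8, 38.9 and 32.5 CPM against 41.0, 28.4 and 35.5 CPM. These values overlapped and were not called (log2 fold change -0.08, SE 0.14). Xbp1 had 110.0, 107 and 118 CPM against 127, 138 and 144 CPM, a log2 fold change of 0.29 (SE 0.09, edgeR adjusted p = 0.029), and lost its call in 11 of the 18 alternatives. Without control replicate 3 neither Eif2ak3 nor Xbp1 was called. Counts per gene do not separate spliced from unspliced Xbp1, and none of these values measures the activity of a sensor.

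Among the ERAD members 3 rose, 1 fell and 7 were not called of the 11 tested, and their median log2 fold change was -0.04. The shares were 27.3% higher and 9.09% lower, beside 14.7% and 15.2% of all genes. The median was between 0.05 and 0.11 when control replicate 1, 2 or 3 or optimized replicate 1 was left out, fits in which Derl3 passed the filter as well. Edem2 starts mannose trimming on glycoproteins that are to be degraded. It lies on chromosome 2 (155542455 to 155571395, minus strand, GRCm39), and its level was 82.1, 86.0 and 91.4 CPM in the controls and 190, 226 and 214 CPM in the optimized libraries. The lowest optimized library was thus far above the highest control, and the log2 fold change of 1.28 (SE 0.09, edgeR adjusted p = 5.6e-06) was the largest of the tested members. Its relatives were not called in the same fit. Edem1 had 382, 377 and 347 CPM against 460, 414 and 433 CPM, a log2 fold change of 0.24 that was not called (SE 0.09, edgeR adjusted p = 0.066). It was called higher by DESeq2 (adjusted p = 0.031) and with the replicate number as a block (edgeR adjusted p = 0.048). Edem3 had 75.5, 71.8 and 62.0 CPM against 94.2, 68.6 and 75.7 CPM, which overlapped.

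Herpud1 lies on chromosome 8 (95113022 to 95123141, plus strand, GRCm39) and encodes a ubiquitin-like membrane protein that brings ERAD factors together. Its level was 51.7, 54.1 and 54.0 CPM in the controls and 24.5, 29.8 and 25.3 CPM in the optimized libraries. The groups lay far apart, and Herpud1 fell by 1.00 on the log2 scale (SE 0.10, edgeR adjusted p = 4e-05). The ubiquitin ligase of the same complex, Syvn1 (HRD1), had 69.1, 61.5 and 64.0 CPM against 84.1, 79.4 and 79.3 CPM, and rose by 0.32 (SE 0.08, edgeR adjusted p = 0.016), a call lost in 7 of the 18 alternatives. Its partner Sel1l had 198, 183 and 174 CPM against 187, 166 and 175 CPM, with a log2 fold change of -0.07 and overlapping libraries. Os9, the lectin that hands glycoproteins to Sel1l, had means of 278 ± 11.6 CPM in the controls and 398 ± 59.6 CPM in the optimized libraries (SD, n = 3 each), so its level was 0.52 higher on the log2 scale (SE 0.12, edgeR adjusted p = 0.0072).

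Derl1 and Derl2, membrane proteins of the channel through which ERAD substrates leave, had log2 fold changes of -0.05 and -0.12, overlapped between the groups and were not called. Derl3 had 2, 5 and 3 counts in the controls and 6, 30 and 21 in the optimized libraries, too few to be kept for the test. Of the 8 alternatives that tested it, 4 called it higher, among them edgeR without the filter on low counts (adjusted p = 0.006) and DESeq2 (adjusted p = 0.0086). The 4 others did not: its adjusted p was 0.054 and 0.051 by edgeR without control replicates 1 and 3, and 0.1 and 0.068 by limma on log2(FPKM + 1) and log2(FPKM + 0.1). Vcp, the ATPase that pulls substrates out of the membrane, had 466, 441 and 454 CPM against 341, 389 and 407 CPM. The optimized libraries were all lower, but the log2 fold change of -0.26 (SE 0.09, edgeR adjusted p = 0.064) was not called. It was called lower in 8 of the 18 alternatives, including DESeq2 (adjusted p = 0.032), the fit with the replicate number as a block (edgeR adjusted p = 0.047), library totals alone and every fit on FPKM. Ufd1, a cofactor of Vcp, had a log2 fold change of -0.04 and was not called.

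Of the 8 translocation members 4 rose and none fell, and the median log2 fold change was 0.22. The number of calls changed with the libraries kept: 0 of the 8 were called without control replicate 1 or without optimized replicate 3. Without control replicate 2 or control replicate 3, 1 was called. Fewer genes at large were also called higher, 10.9% without control replicate 1 and 11.3% without optimized replicate 3, against 14.7% with all libraries. The translocation medians in those fits were 0.20 and 0.21. On FPKM, limma called 0 as well. Sec61a1, which forms the channel pore, had 175, 172 and 173 CPM in the controls and 205, 218 and 207 CPM in the optimized libraries, a log2 fold change of 0.27 (SE 0.08, edgeR adjusted p = 0.022). Sec63, a J protein that couples the channel to BiP, had 77.8, 74.8 and 76.4 CPM against 92.7, 89.3 and 95.6 CPM, a log2 fold change of 0.28 (SE 0.08, edgeR adjusted p = 0.021). The groups did not overlap for either gene, yet the call of Sec61a1 was lost in 11 of the 18 alternatives and that of Sec63 in 10. Ssr1 and Ssr2 encode subunits of the translocon-associated protein complex beside the channel, and their log2 fold changes were 0.34 (SE 0.08, edgeR adjusted p = 0.011) and 0.53 (SE 0.14, edgeR adjusted p = 0.016). Ssr2 had 53.2, 55.7 and 62.6 CPM against 64.8, 94.1 and 89.1 CPM. The call of Ssr1 was lost in 8 of the 18 alternatives and that of Ssr2 in 7, each on removal of any of 3 libraries. Ssr3, of the same complex, had a log2 fold change of 0.16 and was not called, though its libraries did not overlap. The small channel subunits Sec61b and Sec61g had log2 fold changes of 0.14 (SE 0.20) and 0.13 (SE 0.24), the widest errors among the members, and Sec62, an accessory subunit, one of 0.02. The sign of the values for Sec61b, Sec61g and Sec62 was not kept under other settings.

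Compared per length, as FPKM means, Calr was the most abundant member in both conditions, with 651 ± 60.2 in the controls and 962 ± 111 in the optimized libraries (SD, n = 3). In the controls it was followed by Hspa5 (371 ± 16.0), Hsp90b1 (297 ± 9.06) and Pdia3 (285 ± 6.5), and the last of these, Hsp90b1 and Pdia3, differed by less than the sum of their SDs. Under the optimized conditions Pdia3 (463 ± 29.8) came second and Hspa5 (421 ± 30.6) and Hsp90b1 (393 ± 27.5) followed, and each differed from the next by less than the sum of their SDs. Edem2 moved from rank 22 to rank 11 of the 44 and Herpud1 from rank 24 to rank 36. Ern1 and Derl3 were the least abundant in both.

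Several members share exon sequence with another gene, and the counting setting for strand and for reads on more than 1 gene is not given in the sources used here, so such reads cannot be assigned with certainty. Hspa5 overlaps Rabepk on the opposite strand over 2457 bases. Rabepk had 484, 523 and 514 CPM in the controls and 616, 614 and 697 CPM in the optimized libraries, a log2 fold change of 0.34 (SE 0.09, edgeR adjusted p = 0.019), next to 0.32 for Hspa5. Pdia3 overlaps Catsper2, a gene named for a sperm ion channel, over 632 bases on the opposite strand, and Catsper2 had 118 ± 11.8 CPM in the controls and 205 ± 29.6 CPM in the optimized libraries (SD, n = 3), with a log2 fold change of 0.79. On the same strand as Catsper2, Pdia3 also overlaps Serinc4 over 547 bases and Ell3 over 614 bases. Serinc4 had a log2 fold change of 0.21 that was not called, and Ell3 had 4 to 22 counts. Mir704, which shares 14 exon bases with Pdia4, had a log2 fold change of 0.73, next to 0.74 for Pdia4. Other overlapping genes did not move with their member. Mrpl49, which overlaps Syvn1, had a log2 fold change of -0.20, next to 0.32 for Syvn1. Ccdc117, which overlaps Xbp1, had -0.07, next to 0.29 for Xbp1, and neither overlapping gene was called. Derl2, Manf, Sdf2, Syvn1 and Ufd1 likewise share exons with a gene whose count was at least 0.2 of their own. With these 5 and Hspa5 left out, 21 members were called higher and 2 lower.

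Genes that act before and after these members were described by 6 further lists, 93 tested genes in all, of which 29 were called higher and 5 lower. Those were 31.2% and 5.38%, beside 14.7% and 15.2% of all tested genes. Of 17 genes of the oligosaccharyltransferase, which attaches the glycan, and of glycan trimming, 8 rose and none fell, with a median log2 fold change of 0.38. Mlec, a lectin that binds the glucosylated glycan, was the highest at 0.89 (SE 0.10, edgeR adjusted p = 7.9e-05) and the catalytic subunit Stt3a the lowest called at 0.38. Of 19 further ER thiol and folding proteins, 9 rose and none fell. Their extremes among the called genes were Fkbp11, a prolyl isomerase at 0.306 to 0.586 CPM in the controls and 1.84 to 2.3 CPM in the optimized libraries (log2 fold change 2.06, SE 0.33, edgeR adjusted p = 0.00098), and Txndc5 at 0.41.

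The list of signal recognition and signal peptidase genes also holds the translocon genes Ssr4, Tram1 and Sec61a2. It had 5 of 16 genes higher and none lower, beside 14.7% and 15.2% of all tested genes. The called genes ranged from Spcs3 at 0.29 to Ssr4 at 0.77. The list had 3 higher calls when control replicate 1, 2 or 3 or optimized replicate 3 was left out, where 10.7% to 11.3% of all genes were higher. Without optimized replicate 1 it had 8, where 17.4% of all genes were higher. COPII genes, whose coat carries cargo out of the ER, had 5 of 12 higher and none lower, from Sar1a at 0.42 to Sec23a at 0.66. Of the further ERAD genes, 2 of 19 rose and 2 fell (10.5% each, below the shares of all genes), and the median was -0.06. Svip, an inhibitor of ERAD, had the highest log2 fold change at 1.02 (SE 0.17, edgeR adjusted p = 0.0012), and Ngly1, which strips glycans from retrotranslocated proteins, fell by 0.68 on the log2 scale (SE 0.10, edgeR adjusted p = 0.0004). With library totals alone, 6 of the 19 were called lower, where 21.7% of all genes were. Without optimized replicate 1, 5 of the 19 were called higher, where 17.4% of all genes were.

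In the list of the PERK and ATF4 branch, no gene of 10 rose and 3 fell (30.0%), beside 14.7% and 15.2% of all genes. All 10 had a negative log2 fold change, with a median of -0.34. Asns, the asparagine synthetase that ATF4 induces, had 17.2, 18.1 and 19.0 CPM in the controls and 7.15, 9.07 and 10.4 CPM in the optimized libraries, and fell by 1.03 on the log2 scale (SE 0.14, edgeR adjusted p = 0.00038). Ddit3, the gene of the stress factor CHOP, had 40.0, 37.1 and 42.3 CPM against 20.5, 27.9 and 26.8 CPM, and fell by 0.67 (SE 0.13, edgeR adjusted p = 0.0027); its exons overlap those of Mars1 on the opposite strand over 3576 bases. Neither gene overlapped between the conditions. Atf5 fell by 0.60. Its exons overlap those of Nup62 on the opposite strand over 180 bases, and the count of Nup62 was 2.95 times its own. Atf4 itself had 146, 153 and 166 CPM against 104, 142 and 137 CPM, a log2 fold change of -0.28 that was not called (edgeR adjusted p = 0.12). With library totals alone, 7 of the 10 were called lower, where 21.7% of all genes were.

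**Figure D4:**
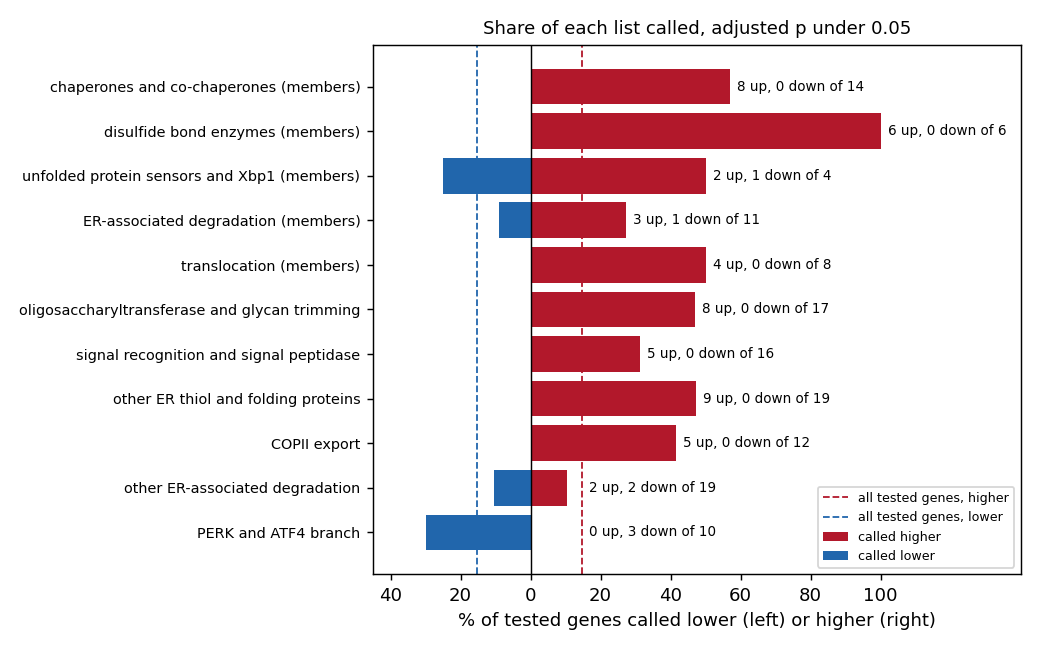
Share of the tested genes of each list that were called higher (right of 0) or lower (left of 0), in percent, for the 5 roles of the members and the 6 linked lists; dashed lines mark the shares over all tested genes. The bar of the disulfide bond enzymes reaches 100.0%, and the list of the PERK and ATF4 branch has lower calls alone, at 30.0%, against 14.7% higher and 15.2% lower over all genes.

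Set against the promoter search described above, 9 of the 10 members with an ERSE were tested. Of these, 7 were called higher (77.8%) and none lower, beside 14.7% and 15.2% of all tested genes. The median log2 fold change of the 9 was 0.32. The calls of Hspa5, Ero1b, Dnajc3 and Syvn1 were lost in 10, 12, 7 and 7 of the 18 alternatives. Canx and Creld2 were the tested members with an ERSE that were not called. Of the 28 members searched that had no ERSE match, 13 were called higher (46.4%) and 1 lower (3.57%), with a median of 0.21. Some of these calls were unstable as well, such as those of Xbp1 and Sec63, lost in 11 and 10 alternatives. The genes at either end of the range, Edem2 at 1.28 and Herpud1, which fell by 1.00, had no exact ERSE match in their windows. Neither did Pdia3, Pdia4 and P4hb. The members with ERSE-II, Herpud1 and Dnajb11, moved in opposite directions.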

How the data were processed

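The authors aligned paired reads by HISAT2 (genome mm39) and assigned them to genes by featureCounts on the Galaxy server (versions not given in the sources used here). They deposited raw counts per gene and FPKM values for 41079 genes in 6 libraries; each FPKM equals its count over a gene constant and a library constant. Members and lists were chosen with earlier results of these data known, so no list was tested as a set. Counts were analysed with edgeR 4.0.16 in R 4.3.3 (filterByExpr, TMM factors, glmQLFit and glmQLFTest, no further term, Benjamini-Hochberg over 14618 genes, threshold 0.05); the script was tested on simulated data. CPM are counts scaled to the TMM-adjusted library size. The common dispersion was 0.0164, a coefficient of variation of 0.128 between libraries, and count totals of 20628148 to 27261839 leave large errors for genes with few counts. No libraries of a condition agreed within sampling noise. Alternatives used DESeq2 1.42.0 and limma 3.58.1. Gene coordinates and exons are from GENCODE M39 on GRCm39, which held all 44 members, and promoter windows start from its canonical transcripts. All members are named, the called extremes of each linked list, Atf4, Ddit3 and Asns, and genes whose exons overlap a member and to which a result is tied. Genes with a profile like that of Hspa5 are not given, since the libraries fall into 2 clusters by condition.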

Additional observations from a re-analysis of the deposited data

How the results depend on the processing

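The main counts were 23 members higher, 2 lower, a median log2 fold change of 0.28, 4360 genes called in all and 29 linked genes higher. With library size alone, 14 members were called higher and 4 lower, where 10.4% of all genes were higher and 21.7% lower, and the median was 0.15. On log2(FPKM + 1), log2(FPKM + 0.1) and log2(FPKM + 1) with a mean of at least 1, limma called 8, 8 and 13 members higher and 4, 4 and 4 lower, with medians of 0.13, 0.14 and 0.13. Over all genes, these fits called 5.44%, 5.46% and 10.2% higher and 11%, 11.1% and 25.6% lower. The first and second of them called 19 linked genes higher. At an adjusted p under 0.01, 13 members were higher and 1 lower, among 2873 genes. Leaving out each library in turn gave 14 to 25 members higher, 1 to 2 lower and medians of 0.25 to 0.34. The share of all genes called higher ranged from 10.7% to 17.4% in these fits, beside 14.7% in the main fit. Relative log expression factors, DESeq2, a minimum of 10 in every library, omission of the low-count filter, removal of a length trend and removal of members with overlapping exons kept the counts of higher calls between 20 and 25. The signs of uncalled members turned as follows: with library size alone, Dnajc10 to -0.01, Sec61g to -0.01 and Sec62 to -0.11; without the filter, Sec62 to -0.0015; on log2(FPKM + 1), with and without the minimum, Dnajb9 to -0.00064, Dnajc10 to -0.02, Sec61b to -0.03, Sec61g to -0.04 and Sec62 to -0.11; on log2(FPKM + 0.1), Dnajb9 to -0.00057, Dnajc10 to -0.02, Sec61b to -0.03, Sec61g to -0.05 and Sec62 to -0.12. Leaving out libraries gave -0.17 to 0.35 for Sec61g, -0.13 to 0.05 for Derl1, -0.07 to 0.0011 for Ufd1, -0.03 to 0.06 for Sec62, -0.22 to 0.04 for Ern1 and -0.10 to 0.34 for Sec61b. The cause of these shifts was not tested. The labels do not say whether libraries with the same replicate number were prepared together. Their deviations correlated at 0.273, -0.0123 and 0.185. The first of these was the highest of all pairs, but not every library correlated best with its own number. Whether the libraries were paired therefore cannot be told. With the replicate block, 4924 genes were called in all, and 24 members were higher and 3 lower (26 and 3 with a length trend removed as well). The block changed the call of no tested member but Vcp, which it called lower, and Edem1, which it called higher. Derl3 had 2 to 30 counts per library, too few to pass the filter on low counts.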
